A study of Mus musculus with 2 samples.

Results

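The 10 genes described here encode 3 Wnt ligands (Wnt2, Wnt5a and Wnt11), 3 secreted frizzled-related proteins (Sfrp1, Sfrp2 and Sfrp4), 2 Dickkopf proteins (Dkk2 and Dkk3), the R-spondin Rspo1, and Dact2. They were chosen by symbol among 31054 genes, with earlier results of these data known, and all 10 were found. The cells were CD31- CD45- cells from gonadal white adipose tissue (gWAT) of 18-month-old male mice with the genotype p16-CreERT2/R26-LSL-tdTomato. The p16 gene drives a Cre recombinase there that works only after tamoxifen, and the recombination leaves the cell expressing tdTomato. All mice received tamoxifen by daily injection and were sacrificed some time later, so the libraries shared age, sex, genotype and treatment. Sorting by tdTomato gave 1 droplet library of Tom+ cells and 1 of Tom- cells. The number of mice behind each library is not given in the sources used here. With 1 library per sorted group, a difference between Tom+ and Tom- cells carries no test, and it cannot be told apart from a difference between the preparations. The comparison of mesothelial with stromal cells was made in both libraries and was tested, although the libraries are not replicates of a condition.

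Wnt ligands are secreted lipid-modified proteins that bind Frizzled receptors together with LRP5 or LRP6, or with other coreceptors such as ROR and RYK. In the canonical branch this stabilises β-catenin, which restrains adipocyte differentiation, while WNT5A and WNT11 are best known for signalling without β-catenin. SFRP proteins bind Wnt ligands outside the cell, Dickkopf proteins of the DKK1 and DKK2 kind block LRP5 and LRP6, and R-spondins prolong the life of Frizzled receptors at the membrane through LGR receptors. DACT2 is a cytoplasmic protein that binds Dishevelled and is not secreted, so it stands apart from the others. Mesothelial cells form the sheet that covers visceral fat, and adipose stromal cells include the progenitors of adipocytes.

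Kept cells had over 1000 but under 7000 genes, and less than 8% mitochondrial UMIs (unique molecular identifiers, each standing for 1 captured RNA molecule). A cell was called mesothelial when Msln, Upk3b, Krt19, Lrrn4 and Upk1b together had at least 10 UMIs, and stromal when they had fewer than 5. The Tom+ library gave 3263 stromal cells (median 14235 UMIs) and 250 mesothelial cells (median 18601.5 UMIs). The Tom- library gave 4800 stromal cells (median 11270 UMIs) and 1887 mesothelial cells (median 14753 UMIs). Another 11 Tom+ and 30 Tom- cells lay between both limits and entered neither class. Of the barcodes, 2224 occurred in both libraries, but only 9 were kept in both. Scrublet called 2 Tom+ and 122 Tom- cells doublets, of which 104 were Tom- mesothelial cells. A list of 10 mesothelial genes not used by the rule summed to 11410 and 11293 CPM (UMIs per 1000000) in the mesothelial cells of the Tom+ and Tom- libraries, and to 369.9 and 596 CPM in the stromal cells. A list of 6 fibroblast genes summed to between 28666 and 30173 CPM in stromal cells and between 13717 and 15317 CPM in mesothelial cells. Dcn made up most of each sum. Of this list Cd34 alone was higher in mesothelial cells, at 435 CPM among Tom+ and 417 CPM among Tom- cells, against 294 and 292 CPM in stromal cells. A list of 4 endothelial markers, of which only Pecam1 encodes an antigen of the sort (CD31), summed to between 7.02 and 14.1 CPM in all 4 groups. Pecam1 itself was at 13.3 CPM among Tom+ and 8.78 CPM among Tom- mesothelial cells, and at 3.27 and 3.63 CPM in stromal cells. Immunoglobulin genes took 5.97% of the stromal UMIs of Tom+ cells and 1.44% of those of Tom- cells, although the sort removed CD45+ cells, and 5 other immune genes summed to 180.1 and 42.4 CPM there. Because each molecule is tagged once at its 3′ end, levels needed no scaling by gene length.

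Genes of one class were also found at low level in the other, where stray RNA, doublets and low expression cannot be told apart, and these levels served as a background. After each cell was thinned to 5000 UMIs, a UMI of Pparg, a stromal gene, was found in 0.8% of Tom+ and 0.431% of Tom- mesothelial cells. For Lpl, which is abundant in stromal cells, the shares of mesothelial cells were 14.4% and 12.2%, against 79.4% and 84.2% of stromal cells. In the other direction, the mesothelial gene Krt7 was found in 0.191% of Tom+ and 0.88% of Tom- stromal cells, against 60.4% and 65.6% of mesothelial cells. Relative to the level in the source class, the background of mesothelial genes was a median of 0.287% in Tom+ and 0.754% in Tom- stromal cells, over 7 genes. These 7 (Krt7, Krt8, Krt18, Muc16, Bnc1, Gpm6a and Slpi) were picked by name. The list of 10 mesothelial genes above stood at 369.9 CPM in stromal against 11410 CPM in mesothelial cells for Tom+. For Tom- these sums were 596 and 11293 CPM, so a background taken from that list would be higher. The background of stromal genes was a median of 7.93% (range 7.15% to 15.9%) in Tom+ and 6.99% (range 6.08% to 12.0%) in Tom- mesothelial cells, over 4 genes. Levels and shares below carry 95% intervals (Poisson limits of the UMI count, and Clopper-Pearson limits of the number of cells, both exact), which cover counting error only.

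Promoter sequences were at hand for 6 of the 10 genes (Wnt2, Wnt11, Sfrp2, Dkk2, Rspo1 and Dact2, from RefSeq on GRCm38.p6) and were not held for Wnt5a, Sfrp1, Sfrp4 and Dkk3. Shown are the 250 bases before the start of Rspo1 (chr4:124986180-124986429) and Sfrp2 (chr3:83766071-83766320), which were higher in mesothelial cells, and the first listed start of Wnt11 (chr7:98834862-98835111), which was higher in stromal cells. All are on the plus strand, written 5′ to 3′, and none overlaps an annotated exon. Capitals mark matches, on either strand, to ATCAAAG (bound by TCF/LEF factors), TGANTCA (AP-1), GGGCGG (the GC box) and TATAAA (the TATA box).
Rspo1: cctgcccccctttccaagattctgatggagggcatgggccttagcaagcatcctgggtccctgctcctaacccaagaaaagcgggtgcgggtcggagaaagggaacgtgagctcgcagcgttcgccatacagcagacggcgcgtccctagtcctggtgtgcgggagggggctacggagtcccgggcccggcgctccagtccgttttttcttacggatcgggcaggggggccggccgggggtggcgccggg
Sfrp2: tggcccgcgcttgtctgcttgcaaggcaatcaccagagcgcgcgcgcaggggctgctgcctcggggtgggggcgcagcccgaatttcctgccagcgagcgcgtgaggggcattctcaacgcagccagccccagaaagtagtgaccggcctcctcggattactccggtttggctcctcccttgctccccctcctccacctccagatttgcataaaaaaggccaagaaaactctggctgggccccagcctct
Wnt11: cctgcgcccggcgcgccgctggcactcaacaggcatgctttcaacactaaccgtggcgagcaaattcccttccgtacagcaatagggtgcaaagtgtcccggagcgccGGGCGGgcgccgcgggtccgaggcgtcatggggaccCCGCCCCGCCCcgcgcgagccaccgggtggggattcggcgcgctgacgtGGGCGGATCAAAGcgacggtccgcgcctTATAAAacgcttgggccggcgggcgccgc
The Wnt11 window held ATCAAAG 51 bases before the start, TATAAA 29 bases before it, and GGGCGG on one strand or the other 142, 106, 101 and 57 bases before it, a pair of which overlap. The Rspo1 and Sfrp2 windows held none of the 4 motifs, nor did the window of a second listed start of Wnt11. The windows of Wnt2, Dact2 and Dkk2, which are not shown, held GGGCGG, and that of Dkk2 also TATAAA. Those of Wnt2 and Dact2 overlap an annotated exon of the same gene, and that of Dact2 lies wholly within the annotated gene. Over 32851 windows of the same length, 3.21% held ATCAAAG, 6.75% TGANTCA, 32.7% GGGCGG and 12.4% TATAAA. These are matches of letters only, and nothing about binding was measured.

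Mesothelial and stromal cells differed in all of these genes that had enough UMIs to compare. Rspo1, Sfrp2 and Dkk3 were higher in mesothelial cells, and Sfrp1, Sfrp4, Dact2, Wnt11 and Wnt5a were higher in stromal cells. The direction was the same in both libraries for each gene. Genes entered this comparison when their mean over both classes reached 5 CPM, which 8 of the 10 did. Of these, 3 were higher and 5 lower in mesothelial cells by at least 1.5-fold, and both libraries gave the same counts. Sfrp4 and Dact2 passed the limit of 5 CPM only through their stromal level. Of all genes compared, 21.0% were higher and 13.9% lower by this rule in the Tom- library, and 22.6% higher and 16.2% lower in the Tom+ library. A quasi-likelihood test in edgeR on the 4 sums of UMIs, with the library as a term, called 4 of the 10 genes higher and 6 lower in mesothelial cells at an adjusted p under 0.05. Of all 15308 genes tested, edgeR called 22.6% higher and 24.2% lower. Because the 10 genes were chosen with earlier results of these data known, their counts beside the shares of all genes are a description only. The test was added after the data were seen, and it had 1 residual degree of freedom. The 2 libraries are 1 Tom+ and 1 Tom- sort, not replicates of a condition. That degree of freedom is the difference of the mesothelial over stromal ratio between the sorts. The p-values measure no spread between mice or between replicate preparations. The plot of levels in each group and the plot of mesothelial over stromal ratios show the 10 genes side by side.

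**Figure D1:**
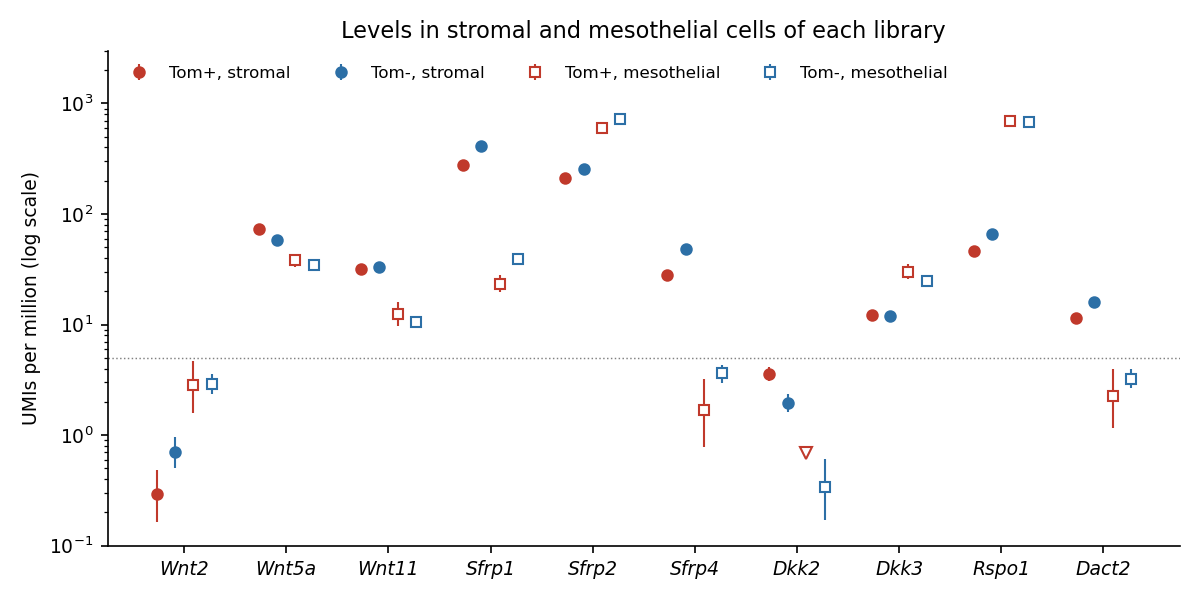
Level of each gene (UMIs per 1000000, log axis) in stromal cells (filled circles) and mesothelial cells (open squares) of the Tom+ library (red) and the Tom- library (blue). Bars are 95% Poisson intervals, the triangle marks the upper limit of Dkk2 with 0 UMIs in Tom+ mesothelial cells, and the dotted line is 5 CPM. Rspo1 lay near 700 CPM in mesothelial cells of both libraries, while Sfrp1 was above 200 CPM only in the stromal groups.

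**Figure D2:**
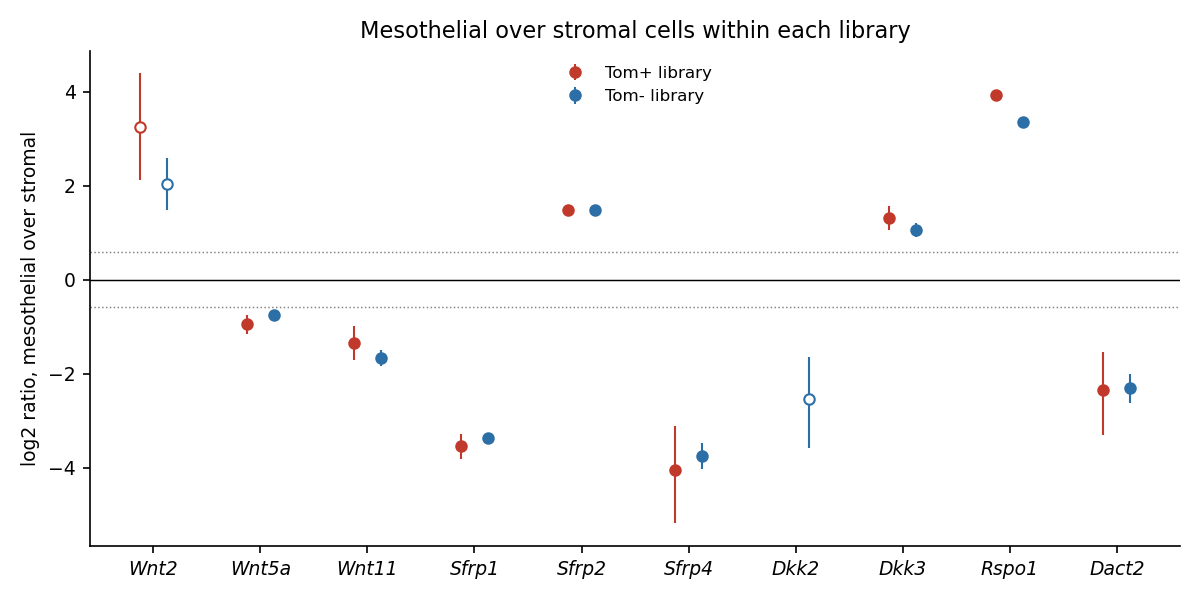
log2 ratio of mesothelial over stromal cells for each gene in the Tom+ library (red) and the Tom- library (blue), with 95% counting intervals. Open symbols are genes with a mean under 5 CPM, the dotted lines mark 1.5-fold, and both libraries lay on the same side of 0 for each gene measured in both.

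Rspo1 (ENSMUSG00000028871, chromosome 4 of GRCm38 from 124986430 to 125009099) had the largest ratio of the compared genes that were higher in mesothelial cells. Its level was 701 CPM (679 to 724) among Tom+ and 677 CPM (668 to 686) among Tom- mesothelial cells, and 46.2 CPM (44.3 to 48.1) among Tom+ and 65.5 CPM (63.5 to 67.6) among Tom- stromal cells. Both mesothelial groups stood above both stromal groups, and the mesothelial groups were close to each other. The log2 ratio was 3.92 (3.85 to 4.00) for Tom+ and 3.37 (3.32 to 3.42) for Tom-, at percentile 97.4 and 96.9 of all genes compared. In edgeR the log2 ratio over both libraries was 3.5 with an adjusted p of 1.1e-05. A Rspo1 UMI was found, after thinning, in 94% (90.3 to 96.6) of the Tom+ and in 92.8% (91.6 to 94.0) of the Tom- mesothelial cells. In thinned stromal cells the shares were 19.4% (18.0 to 20.8) and 25.9% (24.6 to 27.2). The stromal level of Rspo1 was 6.58% of the mesothelial level for Tom+ and 9.68% for Tom-, above the highest of the 7 background genes, which were at 0.482% and 1.26%.

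Sfrp2 (ENSMUSG00000027996, chromosome 3 from 83766321 to 83774316), which encodes a Wnt-binding secreted protein of fibroblasts, was abundant in both classes. It was at 602 CPM (581 to 623) among Tom+ and 718 CPM (709 to 727) among Tom- mesothelial cells, against 214 CPM (210 to 218) among Tom+ and 256 CPM (252 to 260) among Tom- stromal cells. The log2 ratio was 1.49 in both libraries, and in edgeR it was 1.35 with an adjusted p of 5.6e-05. Thinned cells with a Sfrp2 UMI made up 53.6% (47.2 to 59.9) of Tom+ and 64.3% (62.0 to 66.5) of Tom- mesothelial cells, against 29.2% and 27.5% of stromal cells. Dkk3 (ENSMUSG00000030772, chromosome 7 from 112116017 to 112159057) is the Dickkopf family member that does not act as a classical blocker of LRP5 and LRP6. Dkk3 was at 30.1 CPM (25.6 to 35.1) among Tom+ and 24.8 CPM (23.1 to 26.6) among Tom- mesothelial cells, and at 12.1 and 11.9 CPM in Tom+ and Tom- stromal cells. In edgeR its log2 ratio was 1.03 with an adjusted p of 0.00066.

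Wnt2 (ENSMUSG00000010797, chromosome 6 from 17988940 to 18030585), a canonical ligand, was near the limit of detection everywhere. It had 15 UMIs in Tom+ mesothelial cells (2.82 CPM, 1.58 to 4.65) and 94 in Tom- mesothelial cells (2.91 CPM, 2.35 to 3.56). In stromal cells it had 15 UMIs in the Tom+ library (0.294 CPM, 0.164 to 0.484) and 41 in the Tom- library (0.708 CPM, 0.508 to 0.961). The edgeR log2 ratio was 2.35 with an adjusted p of 0.0059, although the gene was under the limit of 5 CPM and so was not entered in the 1.5-fold counts.

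Sfrp1 (ENSMUSG00000031548, chromosome 8 from 23411502 to 23449632) was the most abundant of the 10 genes in stromal cells. It was at 275 CPM (270.5 to 279.6) among Tom+ and 409 CPM (404 to 414) among Tom- stromal cells, and at 23.5 CPM (19.5 to 28.0) among Tom+ and 39.3 CPM (37.2 to 41.5) among Tom- mesothelial cells. The log2 ratio of mesothelial over stromal cells was -3.55 (-3.82 to -3.30) for Tom+ and -3.38 (-3.46 to -3.30) for Tom-, and -3.59 in edgeR with an adjusted p of 5e-06. The mesothelial level was 8.54% of the stromal level for Tom+ and 9.61% for Tom-, within the range of the background of stromal genes. A Sfrp1 UMI was found in 5.2% and 9.38% of thinned Tom+ and Tom- mesothelial cells, fewer than had one of Lpl. Its level in mesothelial cells cannot be told apart from this background.

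Sfrp4 (ENSMUSG00000021319, chromosome 13 from 19623104 to 19632994), a further Wnt-binding protein, was at 28.1 CPM (26.6 to 29.6) among Tom+ and 48.6 CPM (46.8 to 50.4) among Tom- stromal cells. In mesothelial cells it was at 1.69 CPM (0.773 to 3.21, 9 UMIs) among Tom+ and at 3.62 CPM (2.99 to 4.33, 117 UMIs) among Tom- cells. Its edgeR log2 ratio of -3.94, with an adjusted p of 6.4e-06, was the largest in size of the 10 genes. These mesothelial levels, too, were 6.02% and 7.44% of the stromal ones. After thinning, Sfrp4 was found in 0 of 250 Tom+ mesothelial cells, a count that leaves room for a share of 1.2%, and in 0.808% (0.453 to 1.33) of Tom- mesothelial cells. Sfrp4 was also sparse in stromal cells, with a UMI in 5.41% (4.64 to 6.26) of Tom+ and 7.94% (7.17 to 8.76) of Tom- cells. Dact2 (ENSMUSG00000048826, chromosome 17 from 14195052 to 14204304) was at 11.5 CPM (10.6 to 12.5) among Tom+ and 16.1 CPM (15.1 to 17.2) among Tom- stromal cells. In mesothelial cells Dact2 had 12 UMIs in the Tom+ library (2.25 CPM) and 105 in the Tom- library (3.25 CPM), and its edgeR log2 ratio was -2.46 with an adjusted p of 6.6e-05. Without called doublets Dact2 had 42 UMIs (1.41 CPM) in Tom- mesothelial cells and still 12 in Tom+ ones, and the log2 ratio of Tom+ over Tom- mesothelial cells turned from -0.53 to 0.69.

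The Wnt ligands Wnt5a and Wnt11 were higher in stromal cells but were not confined to them. Wnt5a (ENSMUSG00000021994, chromosome 14 from 28504750 to 28527448) was at 73.6 CPM (71.3 to 76.0) among Tom+ and 58.8 CPM (56.8 to 60.8) among Tom- stromal cells. In mesothelial cells Wnt5a was at 38.1 CPM (33.1 to 43.8) and 34.8 CPM (32.8 to 36.9), which is 51.8% and 59.3% of the stromal level and above the range of the background. Its edgeR log2 ratio was -0.98, with an adjusted p of 0.00034. Wnt11 (ENSMUSG00000015957, chromosome 7 from 98835112 to 98855195) was at 31.8 CPM (30.3 to 33.4) among Tom+ and 33.2 CPM (31.8 to 34.8) among Tom- stromal cells. In mesothelial cells Wnt11 was at 12.6 CPM (9.75 to 16.0) and 10.5 CPM (9.45 to 11.7), and its edgeR log2 ratio was -1.67 with an adjusted p of 8.8e-05. Dkk2 (ENSMUSG00000028031, chromosome 3 from 132085292 to 132180304), an LRP5 and LRP6 antagonist, had 184 UMIs in Tom+ stromal cells (3.60 CPM, 3.1 to 4.16) and 114 in Tom- stromal cells (1.97 CPM, 1.62 to 2.37). In mesothelial cells Dkk2 had 11 UMIs in the Tom- library (0.34 CPM) and 0 in the Tom+ library, which allows a level of up to 0.564 CPM. All 11 of these UMIs were in cells that Scrublet called doublets, and without these cells Dkk2 had 0 UMIs in mesothelial cells of both libraries. The edgeR log2 ratio of Dkk2 was -3.22 with an adjusted p of 0.006.

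The ratios between the sorted groups were smaller than those between the classes. In stromal cells, Sfrp4 was the only one of 8 compared genes to differ by at least 1.5-fold between the Tom+ and Tom- libraries, and it was lower in the Tom+ library. Its level there was 57.8% of the Tom- level, or -0.79 (-0.88 to -0.70) on the log2 scale, and its percentile among the 9778 genes compared was 1.68. None of the 8 was higher by this rule. Dkk2 and Wnt2 were under 5 CPM and so were not among the 8. Over the settings tried, the log2 ratio lay between 0.71 and 1.33 for Dkk2, and between -1.46 and -0.42 for Wnt2. Of all genes, 3.86% were higher and 3.25% lower by at least 1.5-fold. Sfrp1, at a log2 ratio of -0.57 (-0.60 to -0.54), Rspo1, at -0.51 (-0.58 to -0.43), and Dact2, at -0.48 (-0.63 to -0.33), were also lower in the Tom+ library but within 1.5-fold. Sfrp2 was at -0.26 (-0.30 to -0.23). Wnt5a had a log2 ratio of 0.32 (0.26 to 0.39), the highest of the 8, while Wnt11 at -0.06 (-0.16 to 0.03) and Dkk3 at 0.02 (-0.14 to 0.18) had intervals that held 0. Over all 9778 genes the median log2 ratio was 0.07. The plot of Tom+ over Tom- ratios shows both classes of cells. Immunoglobulin UMIs differed between the same libraries, as given above, and when stromal cells with at least 3 UMIs of immune or immunoglobulin genes were left out, only 86 Tom+ and 2547 Tom- stromal cells remained. An Igkc UMI was found in 99.5% of all Tom+ stromal cells, so the 86 are not typical of them. The ratios in the cells that remained rest on these 86 and are given without intervals. Sfrp4 was lower there at a log2 ratio of -1.37 and Dact2 at -2.05, so both were past 1.5-fold, and Rspo1 was at -0.11. Of all 9669 genes compared in the cells that remained, 1372 were higher and 998 lower by this rule. Sfrp2 was at 0.38 and Sfrp1 at 0.09, the reverse of their direction in all stromal cells. The part of immunoglobulin RNA in these ratios was not tested.

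**Figure D3:**
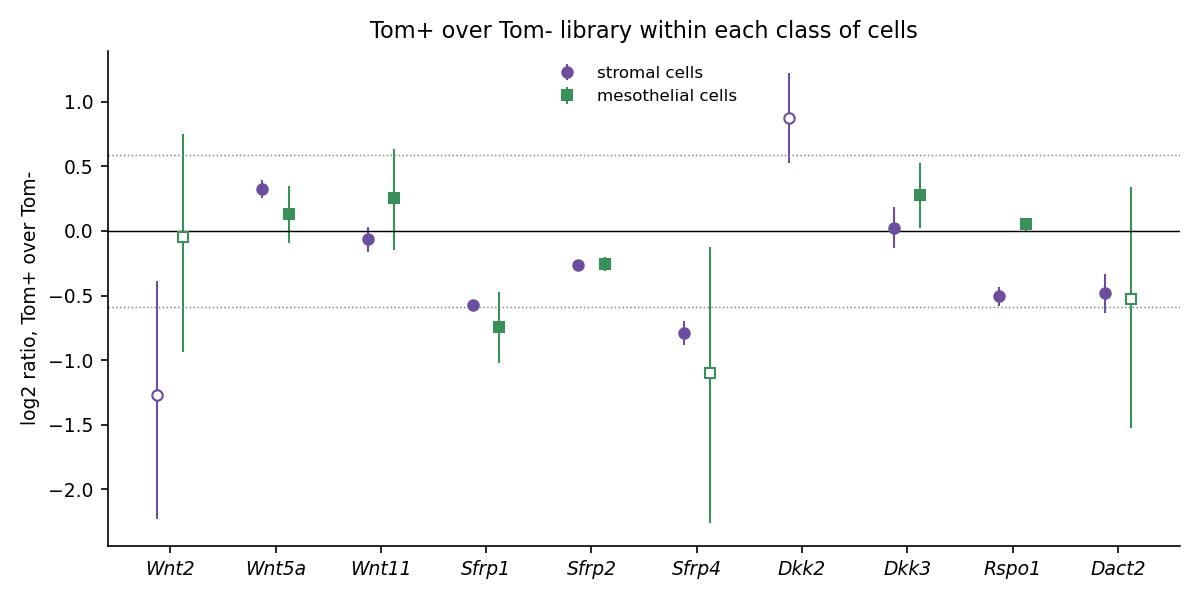
log2 ratio of the Tom+ over the Tom- library for each gene in stromal cells (purple circles) and mesothelial cells (green squares), with 95% counting intervals. Open symbols are genes with a mean under 5 CPM and the dotted lines mark 1.5-fold. Sfrp4 in stromal cells and Sfrp1 in mesothelial cells were the only filled symbols past a dotted line.

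In mesothelial cells, 6 of the 10 genes were compared, and Sfrp1 alone was lower by at least 1.5-fold in the Tom+ library, with a log2 ratio of -0.74 (-1.02 to -0.48), which was percentile 0.649. None was higher. Of all 10014 genes, 1.87% were higher and 1.16% lower. The 5 immune genes summed to 303 CPM among these Tom+ and 13.6 CPM among these Tom- cells, and their part in the ratios was not tested. Without the cells that Scrublet called doublets, Sfrp1 was at 21.2 CPM (17.5 to 25.5) among Tom+ and 23.7 CPM (22.0 to 25.5) among Tom- mesothelial cells, and the log2 ratio of -0.16 was within 1.5-fold. Rspo1 had a log2 ratio of 0.05, with an interval that held 0 and reached 0.10, Wnt5a of 0.13 (-0.09 to 0.35), Wnt11 of 0.26 (-0.14 to 0.64), Dkk3 of 0.28 (0.02 to 0.52) and Sfrp2 of -0.25 (-0.31 to -0.20). The reporter itself was at 780 CPM among Tom+ and 8.25 CPM among Tom- mesothelial cells, and at 211 and 13.1 CPM in stromal cells. A reporter UMI was found in 79.2% of Tom+ and 11.4% of Tom- mesothelial cells, but in only 28.6% of Tom+ stromal cells, against 13.1% of Tom- stromal cells.

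The stromal cells of both libraries were divided into 10 clusters, from variable genes without any of 97 Wnt pathway genes. The clusters are described by their leading genes and carry no test. Stromal means here only that a cell had few mesothelial UMIs. Cluster 7 was led by immune genes, among them Mzb1, Iglc2 and Cd79a, and cluster 9 by the mast cell genes Mcpt4, Tpsb2 and Cpa3. In 8 clusters, cluster 7 among them, both libraries had at least 30 cells. Over these 8 the genes differed widely in where they were found, as the map of levels over clusters shows. Dact2 was the most restricted, at 63.0 CPM (59.7 to 66.4) in cluster 1, which was led by Efhd1 and Limch1 and held Dpp4 among its leading genes, and at no more than 3.38 CPM in any other of the 8. Sfrp4 and Wnt11 were also highest in cluster 1, at 130.1 CPM (125 to 135) and 62.3 CPM (59.0 to 65.7). The next clusters were cluster 3 for Sfrp4, at 46.8 CPM, and cluster 5 for Wnt11, at 34.3 CPM.

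**Figure D4:**
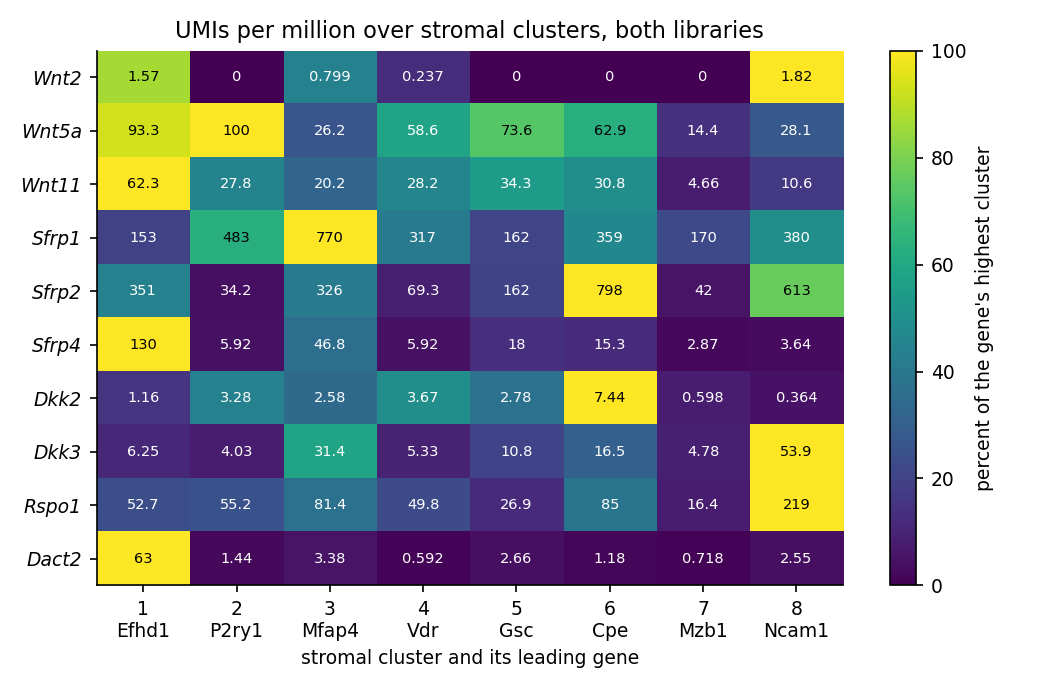
Level of each gene (number in each field, UMIs per 1000000) in the 8 stromal clusters with at least 30 cells of each library, with the leading gene of each cluster under its number. Colour is the percent of the gene's highest cluster, and Dact2 at 63.0 CPM in cluster 1 was the most restricted gene.

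Sfrp1 was lowest in cluster 1, at 153 CPM (148 to 158), and highest in cluster 3, led by Mfap4, Cpxm2 and Il33, at 770.2 CPM (757 to 784), followed by cluster 2, led by P2ry1 and Vtn, at 483 CPM (473 to 494). Sfrp2 ranged over 23.4-fold, from 34.2 CPM (31.5 to 37.0) in cluster 2 to 798 CPM (778 to 818) in cluster 6, led by Cpe and Myh11. Clusters 2 and 3 were thus alike in their high Sfrp1 but unlike in Sfrp2, which was at 326 CPM in cluster 3. Wnt5a was highest in cluster 2, at 100.0 CPM (95.3 to 105), and in cluster 1, at 93.3 CPM (89.3 to 97.5), whose intervals overlapped. It was lowest in cluster 7, led by Mzb1 and immunoglobulin genes, at 14.4 CPM (11.9 to 17.2), where Wnt11, Sfrp4 and Rspo1 were lowest too and the median cell had 30417.5 UMIs.

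Cluster 8, led by Ncam1, Gatm and Acta2, held 255 cells, 13.3% of them from the Tom+ library. It had the highest level of Rspo1 among stromal clusters, 219 CPM (202 to 238), and of Dkk3, 53.9 CPM (45.6 to 63.3), and the second highest of Sfrp2, 613 CPM (584 to 643). These are the genes that were higher in mesothelial than in stromal cells. The rule for stromal cells fixes fewer than 5 UMIs of the mesothelial markers in every cell of cluster 8, so that count says nothing about the cluster. Its Sfrp1 level of 380 CPM (357 to 404) lay between those of clusters 1 and 3. Its Rspo1 level was still far below that of mesothelial cells. Dkk2 was highest in cluster 6, at 7.44 CPM (5.64 to 9.64), and was at most 3.67 CPM in the other 7.

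The share of Tom+ cells differed between clusters, from 13.3% in cluster 8, 20.4% in cluster 3 and 22.3% in cluster 2 to 69.8% in cluster 6 and 79.8% in cluster 5. The clusters with few Tom+ cells included those with the highest Sfrp1. Within clusters, Sfrp1 was higher in the Tom+ library in 4 and lower in 4 of the 8, with log2 ratios from -0.37 to 0.41 and none past 1.5-fold. Wnt5a was higher in the Tom+ library in 8 of 8 clusters, with log2 ratios from 0.22 to 0.62, and the interval lay above 0 in 5 of them. The clusters come from the same 2 libraries and are not replicates. For Sfrp4 the direction was not shared. In cluster 1, where most of its UMIs were, Sfrp4 was at 78.5 CPM among Tom+ and 184 CPM among Tom- cells, a log2 ratio of -1.23 (-1.35 to -1.12). In clusters 3 and 4 its ratio was -0.71 (-1.01 to -0.42) and -1.20 (-2.07 to -0.42), while in clusters 2 and 5 it was 1.19 (0.60 to 1.78) and 1.07 (0.51 to 1.67). Sfrp4 was at no more than 19.8 CPM in either library in clusters 2, 4 and 5. Dact2 in cluster 1 was at 45.5 CPM among Tom+ and 81.4 CPM among Tom- cells, a log2 ratio of -0.84 (-1.0 to -0.68).

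**Figure D5:**
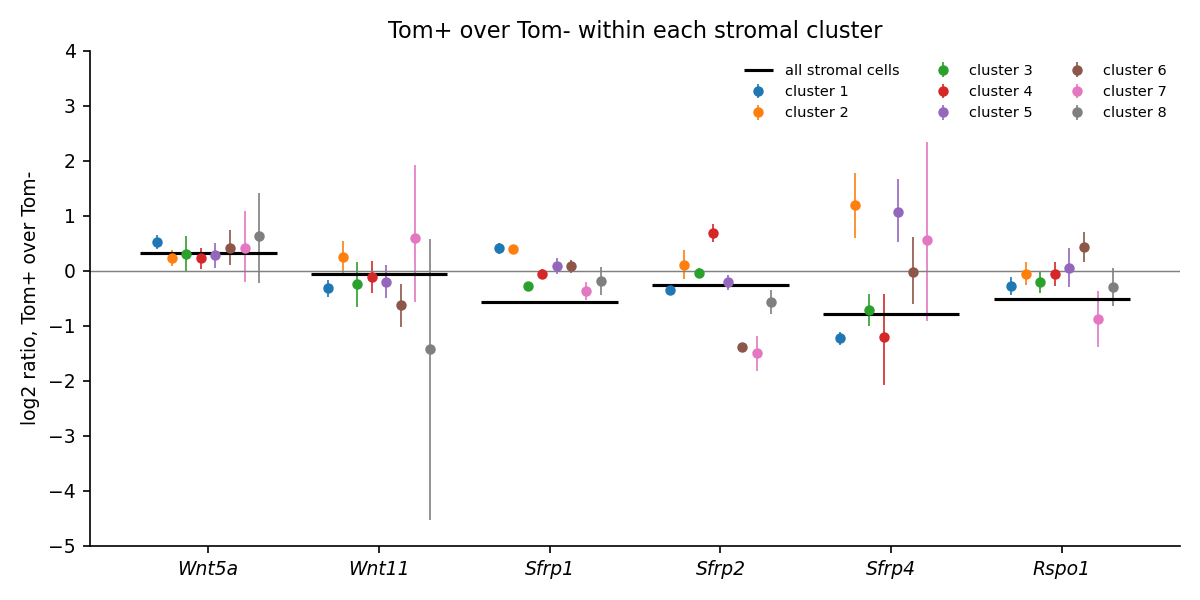
log2 ratio of the Tom+ over the Tom- library within each of the 8 stromal clusters (coloured points with 95% counting intervals) for 6 of the genes, and over all stromal cells (black bars). The 8 points of Wnt5a lay above 0, from 0.22 to 0.62, while the bar of Sfrp1 at -0.57 lay below all 8 of its points.

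Sfrp2 within clusters was lower in the Tom+ library in 6 of 8. The ratios were furthest from 0 in cluster 7, which was led by immune genes, at -1.51 (-1.82 to -1.20), and in cluster 6. In cluster 6 Sfrp2 was at 543 CPM among Tom+ and 1426 CPM among Tom- cells, a log2 ratio of -1.39 (-1.46 to -1.32). In cluster 4, led by Vdr, it was at 94.0 CPM among Tom+ and 58.5 CPM among Tom- cells, a ratio of 0.68 (0.51 to 0.85). Dkk3, which was level over all stromal cells, had an interval above 0 in 5 clusters and below 0 in none. It was at 11.1 CPM among Tom+ and 2.81 CPM among Tom- cells of cluster 4, and at 21.1 and 4.98 CPM in cluster 6. Dkk2 was higher in the Tom+ library in all 6 clusters where both libraries had a UMI, and the interval lay above 0 in 3. In cluster 6, where it was highest, Dkk2 was at 10.1 CPM among Tom+ and 0.905 CPM among Tom- cells. With the 8 clusters weighted equally, 3 genes were past 1.5-fold in stromal cells, all lower in the Tom+ library, namely Sfrp4, Sfrp2 and Dact2. Of all 9850 genes compared in this way, 192 were higher and 122 lower.

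Detection of Dact2, the gene most restricted to 1 cluster, was set beside that of 4 others in the same cells. Among thinned Tom- stromal cells, a Sfrp4 UMI was found in 38.6% (31.4 to 46.3) of the 176 cells with Dact2 and in 6.70% (5.98 to 7.49) of those without. Sfrp2 was found in 67.6% (60.2 to 74.5) of the cells with Dact2 and in 25.9% (24.6 to 27.2) of the others, and Wnt11 in 35.2% (28.2 to 42.8) against 12.9% (11.9 to 14.0). Sfrp1 went the other way, at 37.5% (30.3 to 45.1) with Dact2 and 61.3% (59.8 to 62.7) without. In the 110 Tom+ stromal cells with Dact2, Sfrp4 was found in 25.5% (17.6 to 34.6), Sfrp2 in 58.2% (48.4 to 67.5), Wnt11 in 24.5% (16.8 to 33.7) and Sfrp1 in 37.3% (28.2 to 47.0). In the Tom+ cells without Dact2 these shares were 4.68%, 28.1%, 14.4% and 53.6%, so the direction was the same as in the Tom- library for each. Not all pairs showed such a gap, and among Tom- stromal cells Sfrp1 was found in 60.6% of cells with Wnt5a and 60.3% of cells without. At least 1 of the 3 Wnt ligands was found, after thinning, in 38.6% (36.9 to 40.3) of the Tom+ and in 34.0% (32.7 to 35.4) of the Tom- stromal cells, against 22.8% (17.7 to 28.5) and 17.1% (15.4 to 18.9) of mesothelial cells. In thinned mesothelial cells a Sfrp2 UMI was found in 64.2% of Tom- cells with Rspo1 and 64.7% of those without, and in 54.5% (47.9 to 61.0) of Tom+ cells with Rspo1 and 40% (16.3 to 67.7) of the 15 without.

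Over 18 points (the 8 clusters and the mesothelial cells, each in 2 libraries), the genes most like each member in the log scale of their level were as follows. The points share their libraries, and the coefficients are a description. Rspo1 was most like Ptprf (Pearson r = 0.98), Nkain4 (0.97) and Tst (0.95). Wnt5a was most like Gpatch8 (0.96), Npepps (0.95) and Hoxc4 (0.95), and Wnt11 was most like Anxa4 (0.94), Trip10 (0.94) and Dcaf10 (0.93). Sfrp1 was most like Matn2 (0.92), Col6a5 (0.91) and Gem (0.90), and Dkk3 was most like Pdzrn3 (0.93), Actn1 (0.89) and Ltbp2 (0.88). The closest genes to Sfrp4 were Sdk1 (0.85), Mfap5 (0.84) and Cd248 (0.83), and those to Sfrp2 were Rpl15 (0.84), Eef2 (0.83) and Tubb2b (0.82). Among the 10 genes themselves the closest pairs were Wnt5a with Wnt11 (0.81), Sfrp4 with Dact2 (0.81) and Wnt2 with Rspo1 (0.80), while Sfrp1 and Rspo1 were at -0.42. Wnt2 had 0 UMIs in clusters 2, 5, 6 and 7 of both libraries, so many of its points were at the floor.

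The rest of the pathway was taken from lists of 87 other genes. Of 16 other Wnt ligands, 4 reached a mean of 5 CPM in the comparison of mesothelial with stromal cells, and 3 were higher in mesothelial cells by at least 1.5-fold in both libraries, beside 21.0% of all genes in the Tom- and 22.6% in the Tom+ library. Of the 3, Wnt2b in both libraries and Wnt9a in the Tom- library reached that mean only through their mesothelial level. The rest of the 16 ligands were under that limit, so the count says nothing about their direction, and they went both ways. Wnt6, Wnt10a and Wnt10b were lower in mesothelial cells of both libraries, with intervals below 0. Their log2 ratios were -1.94, -3.02 and -2.27 for Tom-, and -2.30, -2.27 and -1.41 for Tom+, on at most 41 mesothelial UMIs. Wnt7b was higher in mesothelial cells of both libraries, on at most 33 UMIs in any group. Wnt4, a ligand needed in kidney and gonad development, was at 74.0 CPM among Tom+ and 63.8 CPM among Tom- mesothelial cells, and at 5.40 and 15.2 CPM in stromal cells. Wnt9a was at 30.6 and 23.2 CPM in mesothelial and at 6.03 and 4.92 CPM in stromal cells. Wnt5b, a close relative of Wnt5a, was within 1.5-fold, at 13.2 and 11.8 CPM in mesothelial and at 9.47 and 12.8 CPM in stromal cells. Wnt2b, a relative of Wnt2 named after its values were seen, was at 10.5 and 10.2 CPM in mesothelial cells and had 9 and 7 UMIs in stromal cells. In stromal cells Wnt4 was lower in the Tom+ library, with a log2 ratio of -1.50 (-1.70 to -1.30). Wnt5b and Wnt9a were within 1.5-fold there. Among ligands under 5 CPM, Wnt10a was higher in the Tom+ library, at 2.44 (1.86 to 3.07) on 139 and 29 UMIs. Wnt6, at -0.81 (-1.11 to -0.51), and Wnt10b, at -0.54 (-0.81 to -0.26), were lower. Wls, the carrier that escorts Wnt ligands to the cell surface, was at 373 CPM in mesothelial cells of both libraries and at 141 and 143 CPM in Tom+ and Tom- stromal cells. Porcn, the enzyme that adds the lipid to Wnt ligands, was lower in mesothelial cells, at 4.70 and 5.50 CPM against 9.71 and 12.3 CPM. In the Tom+ library Porcn was compared only through its stromal level. Wnt3, Wnt3a, Wnt7a, Wnt8a, Wnt8b and Wnt9b had at most 3 UMIs in every group.

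Of the 14 other secreted modulators, none reached 5 CPM in any comparison. Rspo3, the highest of them, was at 2.80 CPM among Tom+ and 4.79 CPM among Tom- stromal cells, and Frzb at 0.959 and 2.59 CPM, and both were below 1 CPM in mesothelial cells. Rspo2 had 25 and 29 UMIs in stromal and 0 in mesothelial cells. Wif1, Dkk4, Rspo4, Notum, Sost and Cer1 had at most 3 UMIs in every group. Rspo1 was thus by far the most abundant R-spondin in either class. Of its receptors, Lgr4 was at 12.2 and 13.3 CPM in Tom+ and Tom- stromal cells and at 13.3 and 10.2 CPM in mesothelial cells, within 1.5-fold, as was Znrf3, an enzyme that removes Frizzled receptors, at 6.07 and 5.56 against 8.08 and 6.61 CPM, while Lgr5 stayed below 1 CPM and Lgr6 had at most 3 UMIs in any group. Among 18 receptors and coreceptors, 9 of 15 compared were higher and 3 lower in mesothelial cells in the Tom+ library, and 7 of 14 higher and 3 lower in the Tom- library. The shares over all genes were 22.6% higher and 16.2% lower for Tom+, and 21.0% and 13.9% for Tom-. Fzd3, and Fzd6 in the Tom+ library, entered only through their mesothelial level. Ryk was at 189 and 180.0 CPM in mesothelial and at 103 and 99.3 CPM in stromal cells, Fzd1 at 90.9 and 86.3 against 51.8 and 54.2 CPM, and Lrp6 went the other way, at 67.3 and 58.0 against 115 and 97.9 CPM. Over the 15 and 14 compared receptors, the median log2 ratio was 0.73 in the Tom+ and 0.42 in the Tom- library. The medians over all genes were 0.11 and 0.14. Receptors that the filter let in only through their mesothelial level raise the receptor medians, which are a description only.

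Of 8 genes that canonical Wnt signalling is known to induce, 3 were compared between the classes, and all 3 were higher in mesothelial cells of both libraries by at least 1.5-fold, beside 21.0% of all genes in the Tom- and 22.6% in the Tom+ library. Ccnd1 in the Tom+ library was compared only through its mesothelial level. The rest of the 8 had a mean under 5 CPM, so the count says nothing about their direction. Of these, Nkd2 was lower in mesothelial cells of both libraries. Its log2 ratio was -2.22 (-3.44 to -1.22) for Tom+ and -2.03 (-2.43 to -1.64) for Tom-. Lef1 was lower too, on at most 23 UMIs in any group, while Tcf7 and Sp5 were higher in mesothelial cells of both libraries. Nkd1, a feedback inhibitor, was at 80.0 CPM among Tom+ and 75.3 CPM among Tom- mesothelial cells, and at 8.39 and 11.7 CPM in stromal cells. Axin2 was at 19.0 and 17.9 CPM in mesothelial cells and at 11.1 and 5.22 CPM in stromal cells, and Ccnd1, which has many other inputs, at 33.8 and 22.5 CPM against 4.27 and 5.10 CPM. Between the libraries, Axin2 was higher in Tom+ stromal cells by at least 1.5-fold, with a log2 ratio of 1.08 (0.88 to 1.29), while Nkd1 was at -0.47 (-0.65 to -0.30), so these targets did not move together. Ctnnb1, which encodes β-catenin, was at 290.7 CPM among Tom+ and 198 CPM among Tom- stromal cells, a log2 ratio of 0.55 (0.52 to 0.59), and at 198 and 193 CPM in mesothelial cells. Csnk1a1 and Gsk3b, kinases of the complex that degrades β-catenin, had log2 ratios of 0.05 and 0.20 in stromal cells. Of 5 compared genes of planar cell polarity, 1 was higher, 1 lower and 3 within 1.5-fold in mesothelial cells of both libraries. Of all genes, 22.6% were higher and 16.2% lower in the Tom+ library, and 21.0% and 13.9% in the Tom- library. Prickle1 was higher, at 23.1 and 22.3 CPM against 11.3 and 12.0 CPM. Prickle2 was lower, at 6.95 and 4.76 CPM against 15.8 and 11.8 CPM, while Vangl1 and Scrib were within 1.5-fold. In the Tom- library Prickle2 was compared only through its stromal level. Of 16 cytoplasmic signalling genes, 0 were higher in mesothelial cells, while 4 were lower in the Tom+ and 3 in the Tom- library, beside 16.2% and 13.9% of all genes lower. Dact1 was among the lower ones, at 22.4 and 21.2 CPM against 104 and 106 CPM. Between Tom+ and Tom- stromal cells, 0 of these 16 genes and 0 of 13 compared receptors were past 1.5-fold. Of all genes 3.86% were higher and 3.25% lower, so that lists of this size hold few or none at the share of all genes.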

How the data were processed

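Single-cell suspensions were made into 10x Chromium 3′ v3.1 libraries. The authors processed them with Cell Ranger 3.0.2 on mm10, per the submitters' processing notes and the methods, and deposited raw UMI counts per gene and barcode, not normalized. Here counts were read as deposited (Python 3.11.15, scanpy 1.11.5), cells were filtered and classed as given in the report, and UMIs were summed per library and class (51104409 and 5322983 UMIs for Tom+ stromal and mesothelial cells, 57883866 and 32355904 for Tom-) and scaled to 1000000. Sorted groups have 1 library each, so ratios carry exact conditional 95% intervals for counting error and no test. Mesothelial and stromal sums were tested with edgeR 4.0.16 (quasi-likelihood, TMM, library term, Benjamini-Hochberg adjustment, R 4.3.3) and with DESeq2 1.42.0. PCR duplicates were collapsed by UMI. Stromal cells were clustered with Leiden at resolution 0.5 (2000 variable genes, 30 components, 20 neighbours), without correction between libraries, and called doublets stayed in unless stated. The scripts were tested on simulated data. Named genes were all 10 members, up to 3 genes of each other pathway list with the highest mean CPM over the 4 groups of cells, and, for each member at 20 CPM or more in some group, the 3 most correlated genes among those whose mean reached 20 CPM. Some further genes of these lists were named after their values were seen. The members and lists were chosen with earlier results of these data known. Alternatives covered the filters on cells, the class limits, doublets, immune UMIs, scaling, cluster weights and the filter on low values.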

Additional observations from a re-analysis of the deposited data

Results flagged for a closer look

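The barcodes with no more than 1000 genes, which entered no comparison, also held UMIs of the 10 genes. In the Tom+ library 1892 such barcodes held 1633 of these UMIs, a summed level of 978 CPM, and in the Tom- library 4969 such barcodes held 6008, a summed level of 1568 CPM. Both counts are above the 3 counts that a value of 0 allows. Most came from Sfrp2, at 464 and 793 CPM, and Sfrp1, at 298 and 517 CPM, while Rspo1 was at 81.5 and 83.8 CPM and Dact2 had 5 and 3 UMIs. Whether these barcodes are damaged cells or droplets with stray RNA was not tested.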

How the results depend on the processing

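The 1.5-fold counts between mesothelial and stromal cells stayed within 1.5 times of the 8 genes in both libraries under every alternative tried, and no called ratio changed direction. In stromal cells, the count of genes past 1.5-fold between Tom+ and Tom- was 1, and became 2 with median-of-ratios size factors, 2 without cells holding 3 immune UMIs, 3 with clusters weighted equally and 3 without a filter on low values. Sfrp4 was among them each time, with a log2 ratio between -1.37 and -0.71. The value of -1.37 rests on the 86 Tom+ cells left by the limit on immune UMIs. In mesothelial cells the count of 1 became 0 without called doublets and 3 without a filter. Of the log2 ratios recomputed between Tom+ and Tom- stromal cells, 83 kept their sign and 6 did not, all of genes within 1.5-fold (Dkk3, Wnt11, Sfrp1 and Sfrp2). In mesothelial cells 61 kept it and 2 did not (Wnt2 and Dact2, both under 5 CPM). Leaving out the cells with 3 immune UMIs raised the genes past 1.5-fold between Tom+ and Tom- stromal cells. They went from 377 higher and 318 lower of 9778 genes to 1372 and 998 of 9669. Equal cluster weights lowered them to 192 and 122 of 9850. Without a filter on low values these were 3990 and 3399 of 21319. In mesothelial cells they were 2552 and 4105 of 19395 in place of 187 and 116 of 10014. Without called doublets the mesothelial counts were 243 and 72 of 9982. Median-of-ratios size factors gave 261 higher and 394 lower in stromal cells, 164 and 131 in mesothelial cells, and 1688 higher and 1706 lower in place of 2105 and 1392 between the classes in the Tom- library, and 1939 and 1977 in place of 2318 and 1662 in the Tom+ library. Without a filter the counts between the classes were 6277 and 5722 of 21112 genes in the Tom- and 5464 and 7146 of 20517 in the Tom+ library. DESeq2 and edgeR without a filter also called 4 of the 10 genes higher and 6 lower. Over all genes, DESeq2 called 2354 higher and 2467 lower of 16256 tested, and edgeR without a filter 3611 and 4431 of 22138. The main edgeR test called 3460 and 3710 of 15308. The tests with both tools, and the alternative without the barcodes kept in both libraries, were chosen after seeing the data. The causes were not tested. In the edgeR test the library term paired the mesothelial and stromal sums of each library. No paired analysis was possible between Tom+ and Tom- because each sorted group has 1 library.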
